A study of Homo sapiens with 18 samples.

Results

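VEGFA, ADM, SLC2A1, HK2, PFKFB3, PFKFB4, LDHA, NDRG1, BNIP3, and EGLN3 are 10 genes of the hypoxia response and of glycolysis, and their RNA was followed in VCaP cells after ERG knockdown and after treatment with PBITE-1. The genes were chosen by name from the 22034 genes of the count table, with earlier results of these data known. All 10 passed the filter on low counts and are among the 14164 genes tested. Of the 10, 7 fell after ERG knockdown, where 35.3% of all tested genes fell. With PBITE-1, VEGFA rose to 30.3-fold and ADM to 4.40-fold its DMSO level by 12 h, LDHA and EGLN3 fell, and the other 6 genes stayed within 1.62-fold of DMSO in either direction at all 3 times.

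When oxygen is plentiful, prolyl hydroxylases of the EGLN family mark the alpha subunits of the hypoxia-inducible factors (HIFs), and the VHL ubiquitin ligase removes them. When oxygen is short, the alpha subunits HIF1A and EPAS1 accumulate, pair with ARNT, and bind short sites with the core ACGTG near genes for glucose uptake, glycolysis, blood vessel growth, and mitochondrial turnover. Most of these genes also have other inputs, among them MYC for LDHA and HK2 and the integrated stress response for VEGFA.

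The series examined ERG-regulated genes in VCaP with respect to PBITE-1, by RNA-seq of 18 samples in 6 groups of 3. VCaP is an androgen receptor-positive line from a prostate cancer metastasis, and its ERG is driven by a TMPRSS2:ERG fusion. One experiment used VCaP-shERG cells, in which doxycycline switches on a short hairpin RNA against ERG. These cells received vehicle (labelled shERG.DMSO, here shERG-DMSO) or doxycycline at 1 µg/mL (shERG-Dox). In the other, parental VCaP cells without the hairpin received DMSO or 50 µM PBITE-1, a small molecule described as a ligand of the PNT domain of ERG, for 4, 8, or 12 h. The sample labels give neither the duration of doxycycline nor the time at which the DMSO samples were taken. The 3 times of PBITE-1 share the same 3 DMSO samples. No sample with doxycycline in cells that lack the ERG hairpin was analysed here, so that the effects of the drug and of the hairpin cannot be told apart. All samples come from a single cell line, and the labels give no oxygen level. In bulk RNA, fewer cells of a kind and less RNA per cell cannot be told apart.

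RefSeq promoter windows on GRCh38, from 250 bases before to 50 bases after a transcript start, were available for 8 of the 10 genes, 11 windows in all, since HK2, PFKFB3, and LDHA each had 2. The windows were searched on both strands for the HIF core ACGTG, for its variant GCGTG, for the E-box CACGTG (read by MYC and by other bHLH factors, and which always contains ACGTG on both strands), and for the ETS core CGGAAG. The HIF core lay in 5 windows of 4 genes (HK2, PFKFB3, LDHA, and BNIP3), against 21.4% of 35116 promoter windows of the same length. The same 4 genes held CACGTG (7.26% of all windows), 7 genes held GCGTG (36.5%), and LDHA alone, in its second window, held CGGAAG (19.5%). These are matches of letters and not measured binding sites. The shares are of single windows, whereas HK2, PFKFB3, and LDHA had 2 windows each. Counts of genes are therefore not directly comparable with the shares. Windows are shown for LDHA, HK2, and BNIP3, whose RNA fell after ERG knockdown and which hold the motif, and for EGLN3, whose change after knockdown did not pass the test and which holds none of the 4. The pairing is not general, since SLC2A1 also fell after knockdown and its window holds no ACGTG. Of the 2 windows of LDHA and of HK2, the one with more ACGTG is shown. The other LDHA window holds no ACGTG, and the other HK2 window holds ACGTG but no CACGTG. Capitals mark ACGTG on either strand, including both strands of an E-box. The LDHA window is chr11:18394313-18394612 on the plus strand, that of HK2 is chr2:74834920-74835219 on the plus strand, that of BNIP3 is chr10:131981874-131982173 on the minus strand, and that of EGLN3 is chr14:33951025-33951324 on the minus strand. Each is written 5′ to 3′ along its gene.
LDHA: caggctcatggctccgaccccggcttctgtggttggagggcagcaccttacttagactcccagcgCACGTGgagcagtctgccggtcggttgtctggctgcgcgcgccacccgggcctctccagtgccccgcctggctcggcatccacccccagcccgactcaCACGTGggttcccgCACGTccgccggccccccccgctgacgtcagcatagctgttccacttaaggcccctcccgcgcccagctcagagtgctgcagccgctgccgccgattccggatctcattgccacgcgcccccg
HK2: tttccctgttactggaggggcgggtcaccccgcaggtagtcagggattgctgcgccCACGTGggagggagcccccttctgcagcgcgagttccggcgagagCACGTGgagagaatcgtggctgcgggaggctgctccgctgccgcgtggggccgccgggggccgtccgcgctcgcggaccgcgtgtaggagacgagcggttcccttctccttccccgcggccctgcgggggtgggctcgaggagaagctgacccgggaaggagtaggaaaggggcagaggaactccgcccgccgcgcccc
BNIP3: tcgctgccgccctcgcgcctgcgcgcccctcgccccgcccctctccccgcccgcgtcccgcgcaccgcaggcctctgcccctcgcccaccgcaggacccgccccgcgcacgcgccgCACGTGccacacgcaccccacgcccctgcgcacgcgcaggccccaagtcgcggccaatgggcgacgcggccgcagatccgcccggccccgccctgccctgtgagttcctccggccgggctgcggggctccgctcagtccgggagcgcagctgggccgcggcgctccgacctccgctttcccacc
EGLN3: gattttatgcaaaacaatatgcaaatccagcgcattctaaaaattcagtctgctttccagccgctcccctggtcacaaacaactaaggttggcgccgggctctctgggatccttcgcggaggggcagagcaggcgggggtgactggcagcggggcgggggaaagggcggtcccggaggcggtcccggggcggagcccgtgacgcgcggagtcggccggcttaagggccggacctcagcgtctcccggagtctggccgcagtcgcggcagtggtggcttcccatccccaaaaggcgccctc

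ERG RNA, the target of the hairpin, was 447.6 ± 13.7 CPM (SD, n = 3) in shERG-DMSO and 164.3 ± 4.63 CPM after Dox (log2 fold change -1.44, SE 0.04, and -1.43 without vehicle replicate 1). CPM is a count relative to its library total, scaled with TMM factors within each experiment. ERG was 289.1 ± 8.85 CPM in DMSO and 179.9, 93.8, and 97.2 CPM at 4, 8, and 12 h of PBITE-1. Library totals lay between 11308600 and 17483423 counts. The 10 markers of prostate luminal cells had counts in every library, with summed levels of 10490 to 10720 CPM in shERG-DMSO, 6500 to 6749 in shERG-Dox, 7597 to 7740 in DMSO, and 7172 to 7256, 5216 to 5348, and 3320 to 3907 at 4, 8, and 12 h of PBITE-1. Their part in the results below was not tested. Markers of basal cells (3 of 4 in the table), fibroblasts (5), endothelial cells (5), and leukocytes (5) were listed too. Each of these lists summed to at most 9.35 CPM in any library. CDH5, COL1A2, CD3E, DCN, and PDGFRA had no more than 3 counts, whereas COL1A1 reached 110, KRT14 96, LUM 37, PECAM1 26, and VWF and LYZ 25. The 3 neuroendocrine markers summed to 83.2 to 149.1 CPM.

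A single vehicle library stood apart for these genes. In shERG-DMSO, replicate 1 was above the mean of the other 2 libraries in 10 of 10 genes, by a median of 0.75 on the log2 scale (range 0.13 for ADM to 1.34 for PFKFB4). Over all tested genes it was above them in 50.4%, with a median difference of 0.00. It was also above them in 27 of 31 other hypoxia genes and in 18 of 22 other enzymes of glycolysis. In the 5 other groups, the median difference of a library over the 10 genes lay between -0.05 and 0.07. The cause was not tested, and the values of the 10 genes that use shERG-DMSO, and the counts and named genes of the lists, are therefore given with and without this library.

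**Figure D1:**
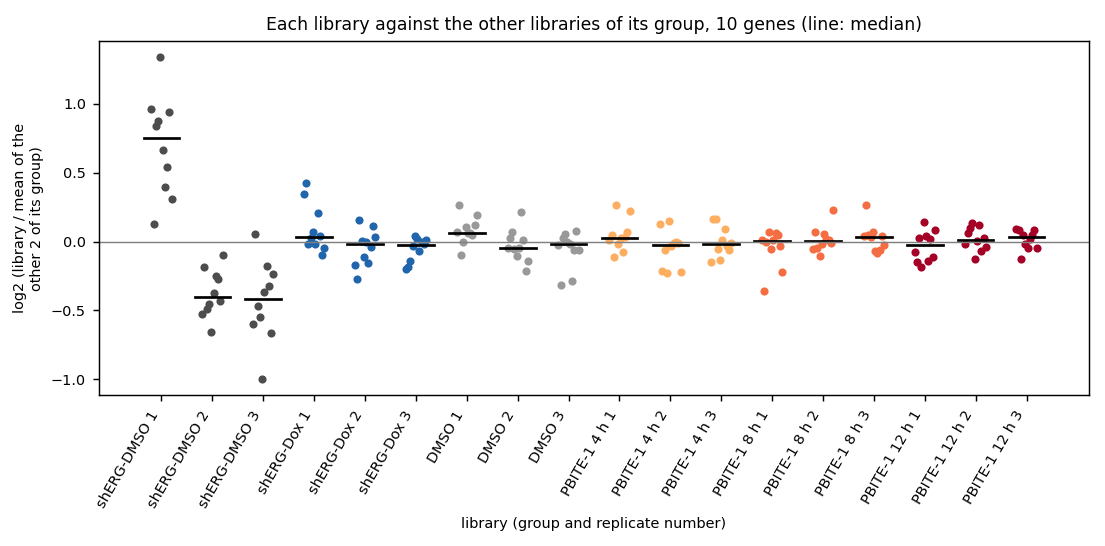
Each point is 1 of the 10 genes in 1 library; the y axis is the log2 ratio of its CPM to the mean CPM of the other 2 libraries of the same group, the x axis lists the 18 libraries, and black lines are medians. The points of shERG-DMSO replicate 1 all lie above 0, with a median of 0.75, whereas the medians of the libraries outside this group lie within 0.07 of 0.

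After ERG knockdown, 7 of the 10 genes passed the test (limma-voom, adjusted p under 0.05 over all tested genes), all of them lower. Of all tested genes, 35.3% passed as lower and 35.1% as higher. Of the 7, 6 were also past a log2 fold change of -1, and these are referred to as called. Among all tested genes, 7.19% were called lower and 12.0% called higher. The median log2 fold change was -1.23 over the 10 genes and 0.02 over all tested genes. Libraries of the 2 groups did not overlap for 8 of the 10 genes, against 72.6% of all tested genes. Scaling by library size alone moved the median of all tested genes from 0.02 to 0.28, cut the share of lower genes among the calls from 37.5% to 17.2%, and gave a median of -0.97 for the 10 genes. Without shERG-DMSO replicate 1, the same 7 genes passed the test as lower, 5 of them were called, PFKFB4 passed as higher, and the median was -1.01. BNIP3 was the only one of the 7 that no longer passed under another setting, without the filter on low counts (-0.83, adjusted p = 0.063 by limma-voom).

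With PBITE-1, 6 genes passed the test as higher and 3 as lower at 4 h and again at 8 h, and 8 as higher and 2 as lower at 12 h. Of all tested genes, 26.4%, 35.9%, and 39.4% passed as higher and 24.7%, 37.0%, and 39.4% as lower at 4, 8, and 12 h. VEGFA and ADM were called higher at all 3 times, where 7.28%, 14.9%, and 17.1% of all tested genes were. LDHA was called lower at 12 h, where 15.4% were, and no gene was called lower at 4 or 8 h (2.99% and 8.86%). The medians over the 10 genes were 0.21, 0.51, and 0.26, beside -0.01, -0.02, and -0.01 over all tested genes. Libraries did not overlap with DMSO for 9, 10, and 9 of the 10 genes, against 56.4%, 74.6%, and 78.6% of all tested genes, and many small differences passed the test. In a fit that included the shERG samples, HK2 at 4 h (0.16) and 12 h (0.24), LDHA at 4 h (-0.14), and PFKFB3 (0.20), PFKFB4 (0.23), and NDRG1 (0.10) at 12 h no longer passed.

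**Figure D2:**
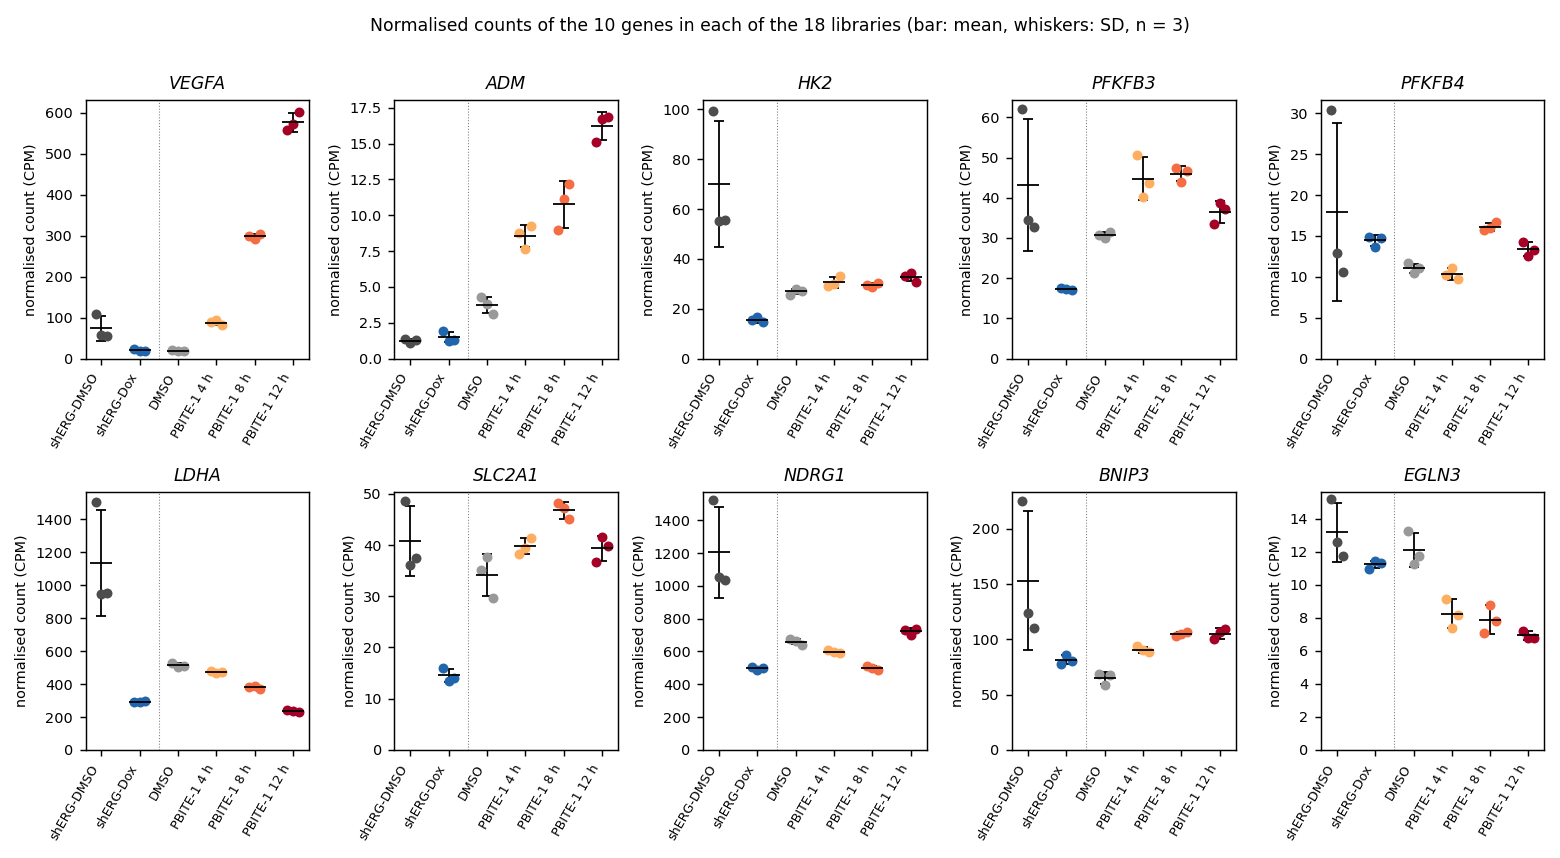
CPM (y axis, linear and starting at 0, its scale differing between panels) of each of the 10 genes in the 18 libraries, by group (x axis); points are libraries, bars are means, whiskers are SD (n = 3), and the dotted line separates the shERG experiment from that in parental cells. VEGFA and ADM climb with each time of PBITE-1 to 576.5 and 16.2 CPM, LDHA declines to 237.4 CPM, and the highest shERG-DMSO point is replicate 1 in all 10 panels.

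VEGFA (ENSG00000112715, chr6:43770184-43786487), the main growth factor for blood vessels, had the largest change of the 10 genes with PBITE-1. It was at 109.6, 57.1, and 55.0 CPM in the shERG-DMSO libraries and at 23.7, 18.7, and 18.4 CPM in shERG-Dox. The groups did not overlap, although vehicle replicate 1 was far above the other vehicle libraries. The log2 fold change was -1.77 (SE 0.19, adjusted p = 7.96e-09), and -1.48 without that library. In parental cells VEGFA was at 19.6, 18.6, and 18.8 CPM in DMSO. It was at 88.2, 93.1, and 81.7 CPM after 4 h of PBITE-1, at 300.1, 291.3, and 304.2 CPM after 8 h, and at 556.9, 571.5, and 601.2 CPM after 12 h. No library of any time overlapped with those of another time or with DMSO. Against DMSO it rose by 2.20 (SE 0.08) at 4 h, 3.97 (SE 0.07) at 8 h, and 4.92 (SE 0.07, adjusted p = 2.41e-38) at 12 h on the log2 scale, or 4.60-fold, 15.7-fold, and 30.3-fold.

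ADM (ENSG00000148926, chr11:10304680-10307397), which encodes adrenomedullin, a peptide that widens blood vessels, was scarce in the shERG line. Its counts were 16, 16, and 17 in the shERG-DMSO libraries and 26, 16, and 17 in shERG-Dox, and the log2 fold change of 0.26 (SE 0.34, adjusted p = 0.496) did not pass the test, nor did that of 0.32 without vehicle replicate 1 (adjusted p = 0.471 by limma-voom). A difference was not detectable at this depth. Parental cells held more, with 4.27, 3.78, and 3.14 CPM in DMSO. PBITE-1 brought ADM to 8.74, 7.68, and 9.24 CPM at 4 h, 8.98, 11.2, and 12.2 CPM at 8 h, and 15.1, 16.7, and 16.9 CPM at 12 h. All treated libraries were above all DMSO libraries, while those of 4 and 8 h overlapped. The rises of 1.21 (SE 0.18), 1.50 (SE 0.17), and 2.14 (SE 0.16, adjusted p = 5.56e-15) on the log2 scale correspond to 2.31-fold, 2.84-fold, and 4.40-fold.

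SLC2A1 (ENSG00000117394, chr1:42925375-42959176), the glucose transporter GLUT1, brings glucose into the cell. It was at 48.6, 36.2, and 37.5 CPM in shERG-DMSO and at 16.1, 13.5, and 14.1 CPM in shERG-Dox. The groups were far apart, and the log2 fold change was -1.46 (SE 0.11, adjusted p = 8.19e-12), or -1.34 without vehicle replicate 1. In parental cells it was at 35.2, 37.6, and 29.7 CPM in DMSO, where replicate 3 was the lowest. It was at 38.3, 39.5, and 41.4 CPM at 4 h, 48.2, 47.2, and 45.0 CPM at 8 h, and 36.8, 41.6, and 39.8 CPM at 12 h. The rises were small, 0.23, 0.47, and 0.22 on the log2 scale, and at 12 h the libraries overlapped with DMSO. The tests at 4 and 12 h rested on DMSO replicate 3, without which the values were 0.13 (adjusted p = 0.174) and 0.11 (adjusted p = 0.167) by limma-voom. At 4 h it also no longer passed without PBITE-1 replicate 3 (0.20, adjusted p = 0.0597).

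HK2 (ENSG00000159399, chr2:74833981-74893359) encodes hexokinase II, which traps glucose in the cell as its phosphate. Of the 10 genes it had the most negative log2 fold change after ERG knockdown. It was at 99.4, 55.0, and 55.8 CPM in shERG-DMSO against 15.4, 16.7, and 14.5 CPM in shERG-Dox. All vehicle libraries were above all Dox libraries, and the log2 fold change was -2.09 (SE 0.19, adjusted p = 1.40e-10), or -1.84 without vehicle replicate 1. PBITE-1 left HK2 near its level in parental DMSO, which was 25.7, 27.8, and 27.2 CPM. It was at 29.03, 29.75, and 32.97 CPM at 4 h, 29.5, 28.9, and 30.2 CPM at 8 h, and 33.2, 34.3, and 30.8 CPM at 12 h. The libraries did not overlap with DMSO, but the differences were small, 1.14-fold, 1.09-fold, and 1.22-fold. On the log2 scale they were 0.18 (SE 0.08, adjusted p = 0.0448), 0.13 (SE 0.08, adjusted p = 0.122), and 0.28 (SE 0.07, adjusted p = 0.000852). At 4 h it no longer passed under 10 of 16 alternatives, among them the fits without DMSO replicate 1 (0.15) or 3 (0.19) and without PBITE-1 replicate 2 (0.21) or 3 (0.13).

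PFKFB3 and PFKFB4 make and break down fructose 2,6-bisphosphate, the strongest activator of phosphofructokinase, and PFKFB3 works mostly in the making. PFKFB3 (ENSG00000170525, chr10:6144934-6254644) was at 62.0, 34.4, and 32.8 CPM in shERG-DMSO and at 17.6, 17.4, and 17.1 CPM in shERG-Dox. It fell by 1.22 on the log2 scale (SE 0.16, adjusted p = 3.00e-07) without overlap of the groups. Without vehicle replicate 1 the value was -0.95 and no longer past the fold threshold (adjusted p = 4.40e-09). In parental cells it was at 30.7, 30.0, and 31.6 CPM in DMSO. It was at 50.5, 40.1, and 43.7 CPM at 4 h, 47.5, 43.9, and 46.7 CPM at 8 h, and 33.4, 38.7, and 37.2 CPM at 12 h. Its level was thus highest at 4 and 8 h, and the rises were 0.53 (SE 0.08), 0.58 (SE 0.08), and 0.24 (SE 0.08, adjusted p = 0.00489).

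PFKFB4 (ENSG00000114268, chr3:48517684-48562015) behaved otherwise in the shERG line. It was at 30.4, 12.9, and 10.6 CPM in shERG-DMSO and at 14.9, 13.7, and 14.7 CPM in shERG-Dox, so that 1 vehicle library lay above and the other 2 lay below every Dox library. The log2 fold change was -0.11 (SE 0.21, adjusted p = 0.652) with all libraries and 0.30 (SE 0.13, adjusted p = 0.0417) without replicate 1, which reverses the direction. No direction is therefore given for PFKFB4 after knockdown. In parental cells it was at 11.6, 10.5, and 11.02 CPM in DMSO, 10.2, 11.1, and 9.68 CPM at 4 h, 15.7, 16.0, and 16.7 CPM at 8 h, and 14.3, 12.6, and 13.2 CPM at 12 h. The difference at 4 h was -0.09 (SE 0.12, adjusted p = 0.534). PFKFB4 then rose by 0.54 (SE 0.10, adjusted p = 1.69e-05) at 8 h and by 0.27 (SE 0.11, adjusted p = 0.0219) at 12 h. At 12 h it no longer passed without DMSO replicate 2 (0.24, adjusted p = 0.0745 by limma-voom) or PBITE-1 replicate 1 (0.23, adjusted p = 0.0857). UCN2, a gene that overlaps PFKFB4 on the same strand, had at most 15 counts in any library.

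LDHA (ENSG00000134333, chr11:18394388-18408425), which encodes the lactate dehydrogenase subunit that turns pyruvate into lactate, fell with both treatments. It was at 1505, 946.5, and 952.3 CPM in shERG-DMSO and at 289.7, 292.0, and 294.8 CPM in shERG-Dox. The Dox libraries lay close together and far below the vehicle, and the log2 fold change was -1.91 (SE 0.11, adjusted p = 4.47e-14), or -1.70 without vehicle replicate 1. In parental cells it was at 530.5, 504.5, and 511.5 CPM in DMSO, 479.5, 466.8, and 476.0 CPM at 4 h, 382.8, 389.9, and 368.4 CPM at 8 h, and 241.9, 237.8, and 232.5 CPM at 12 h. Each time was below the one before it with no overlap. LDHA fell by 0.12 (SE 0.03, adjusted p = 0.00308) at 4 h, 0.44 (SE 0.03) at 8 h, and 1.12 (SE 0.04, adjusted p = 1.06e-26) at 12 h. The 4 LDHA pseudogenes in the table held at most 11 counts in any library.

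NDRG1 (ENSG00000104419, chr8:133237171-133302022) encodes a stress-responsive cytoplasmic protein whose RNA is also induced by androgen in prostate cells. It was at 1522, 1057, and 1033 CPM in shERG-DMSO and at 508.2, 488.7, and 497.4 CPM in shERG-Dox. The fall of 1.24 (SE 0.09, adjusted p = 8.84e-13) on the log2 scale was 1.07 without vehicle replicate 1. In parental cells NDRG1 went down and then up. It was at 674.9, 662.4, and 642.3 CPM in DMSO, 608.5, 598.8, and 590.5 CPM at 4 h, 509.0, 501.3, and 484.5 CPM at 8 h, and 731.6, 703.3, and 739.9 CPM at 12 h. No 2 of these 4 groups overlapped. NDRG1 fell by 0.14 (adjusted p = 0.000547) at 4 h and by 0.40 (adjusted p = 1.05e-13) at 8 h, and it rose by 0.14 (adjusted p = 0.000232) at 12 h, each with an SE of 0.03.

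BNIP3 (ENSG00000176171, chr10:131966455-131982013) encodes a mitochondrial outer membrane protein that marks mitochondria for autophagy. It was at 225.0, 123.8, and 109.9 CPM in shERG-DMSO and at 77.7, 85.8, and 80.8 CPM in shERG-Dox. It fell by 0.82 (SE 0.15, adjusted p = 2.29e-05) on the log2 scale, which is short of the fold threshold, and by 0.53 without vehicle replicate 1. With PBITE-1 the direction was the opposite. BNIP3 was at 69.0, 59.0, and 67.6 CPM in DMSO, 93.5, 90.2, and 88.0 CPM at 4 h, 103.2, 104.5, and 106.8 CPM at 8 h, and 99.8, 106.2, and 109.2 CPM at 12 h. It rose by 0.48 (SE 0.06), 0.69 (SE 0.06), and 0.69 (SE 0.06, adjusted p = 2.02e-14). Of the BNIP3 pseudogenes, 7 stand in the table as separate genes with at most 17 counts each, so that reads shared with them are uncertain. Its paralog BNIP3L had at most 1 count in any library, and whether its RNA was absent or its reads were not counted was not tested.

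EGLN3 (ENSG00000129521, chr14:33924231-34462774) encodes PHD3, a prolyl hydroxylase that acts on HIF alpha subunits and is itself induced through HIF. It was at 15.2, 12.6, and 11.8 CPM in shERG-DMSO and at 10.97, 11.4, and 11.3 CPM in shERG-Dox. The groups did not overlap, but the log2 fold change of -0.21 (SE 0.12, adjusted p = 0.114) did not pass the test, and it was -0.12 without vehicle replicate 1 and -0.29 (adjusted p = 0.0498 by limma-voom) without replicate 3. With PBITE-1 it went from 13.3, 11.3, and 11.8 CPM in DMSO to 9.15, 7.38, and 8.20 CPM at 4 h, 7.06, 8.81, and 7.80 CPM at 8 h, and 7.22, 6.80, and 6.79 CPM at 12 h. All treated libraries were below all DMSO libraries. EGLN3 fell by 0.55 (SE 0.13), 0.62 (SE 0.13), and 0.80 (SE 0.13, adjusted p = 1.07e-06). The gene overlaps SPTSSA, with up to 1062 counts per library, and a processed pseudogene on the same strand in the annotation, so that the assignment of some reads is uncertain.

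**Figure D3:**
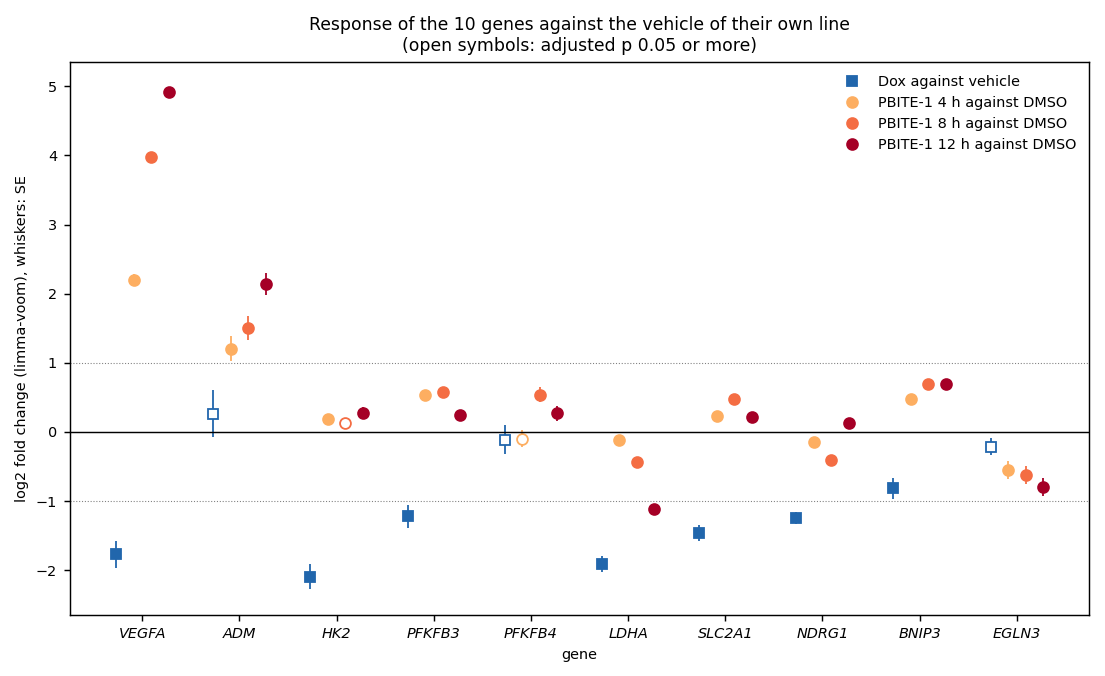
Log2 fold change (y axis) of each of the 10 genes (x axis) for Dox against vehicle (blue squares) and for 4, 8, and 12 h of PBITE-1 against DMSO (orange to dark red circles), with SE as whiskers; open symbols did not pass the test and dotted lines mark the fold threshold of 1. VEGFA ranges from -1.77 with Dox to 4.92 at 12 h of PBITE-1, while LDHA is negative in all 4 comparisons.

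Successive times of PBITE-1 were compared within the fit of the 12 parental samples. The log2 difference sets no DMSO sample against another group, but the SE and adjusted p draw on the spread of all 12. VEGFA was the only one of the 10 genes called, and only from 4 to 8 h (log2 difference 1.77, SE 0.05, adjusted p = 6.63e-27). In that step 4.43% of all tested genes were called higher and 2.22% lower. From 8 to 12 h VEGFA rose by a further 0.95 (SE 0.04), just short of the threshold. There 3.48% and 6.59% of all tested genes were called higher and lower. From 4 to 8 h, SLC2A1 (0.24), PFKFB4 (0.63), and BNIP3 (0.21) also passed the test as higher, and LDHA (-0.32) and NDRG1 (-0.26) as lower, so that 4 of the 10 passed as higher and 2 as lower (26.7% and 26.3% of all tested genes). From 8 to 12 h, ADM (0.63) and NDRG1 (0.54) passed as higher, and LDHA (-0.68), PFKFB3 (-0.34), SLC2A1 (-0.25), and PFKFB4 (-0.27) as lower, 3 and 4 with VEGFA (27.8% and 32.5% of all tested genes). Libraries did not overlap between the times for 6 and 8 of the 10 genes, against 60.2% and 63.7% of all tested genes. SLC2A1 and PFKFB4 thus rose and then fell, and NDRG1 fell and then rose. EGLN3 passed in neither step (-0.07 and -0.17), nor did HK2 (-0.05 and 0.15). From 8 to 12 h, PFKFB4 no longer passed without PBITE-1 8 h replicate 3 (-0.25) and without 12 h replicate 2 (-0.22) or 3 (-0.26).

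The response to 12 h of PBITE-1 minus that to Dox was tested as an interaction in a single fit of all 18 samples. Cell line, treatment, and duration cannot be told apart in this difference. Each treatment was given to its own line, and the labels give no duration of doxycycline. For 7 of the 10 genes the difference was called as higher with PBITE-1 (13.0% of all tested genes were), and for none as lower (15.9% were). It was 6.65 (SE 0.21, adjusted p = 6.02e-30) for VEGFA and 2.33 (SE 0.20, adjusted p = 3.02e-14) for HK2. ADM (1.83), SLC2A1 (1.64), BNIP3 (1.47), PFKFB3 (1.42), and NDRG1 (1.34) were the others. LDHA fell less with PBITE-1 than with Dox (0.75, SE 0.12, adjusted p = 7.09e-07), and EGLN3 fell more (-0.62, SE 0.18, adjusted p = 0.00193). For PFKFB4 the difference of 0.34 (SE 0.25, adjusted p = 0.219) did not pass. In all, 8 genes passed as higher and 1 as lower, against 33.3% and 35.1% of all tested genes. The median was 1.45 over the 10 genes and -0.02 over all tested genes, which library size alone moved to 1.19 and -0.28, with 70% lower among the calls of all genes against 55.1% as scaled here. Without shERG-DMSO replicate 1, 7 were again called, with VEGFA at 6.37, HK2 at 2.09, ADM at 1.80, SLC2A1 at 1.53, BNIP3 at 1.20, PFKFB3 at 1.17, and NDRG1 at 1.18, while LDHA was at 0.56, EGLN3 at -0.70, and PFKFB4 at -0.05.

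The vehicle groups of the lines also differed in these genes. In the fit of all 18 samples, VEGFA was 3.24-fold higher in shERG-DMSO than in DMSO (log2 1.69, SE 0.15, adjusted p = 4.10e-13), and HK2 was 2.20-fold higher (log2 1.14, SE 0.12). Both were called, where 1.19% of all tested genes were called higher. ADM was called lower (log2 -1.73, SE 0.30, adjusted p = 5.32e-06), where 5.0% were. LDHA (0.93), NDRG1 (0.67), and BNIP3 (0.98) passed the test as higher, and PFKFB3 (0.23), PFKFB4 (0.34), SLC2A1 (0.08), and EGLN3 (-0.05) did not pass, making 5 higher and 1 lower (23.3% of all tested genes in each direction). Without shERG-DMSO replicate 1, VEGFA was at 1.40 and HK2 at 0.88, so that VEGFA alone was called higher, and without replicate 2 or replicate 3 there were 4 such calls. The other values without replicate 1 were -1.78 for ADM, 0.72 for LDHA, 0.50 for NDRG1, 0.69 for BNIP3, -0.03 for PFKFB3, -0.07 for PFKFB4, -0.04 for SLC2A1, and -0.14 for EGLN3. Line, hairpin vector, and experiment cannot be told apart.

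Per kilobase of its longest coding transcript, LDHA and NDRG1 were the most abundant of the 10 RNAs in every group up to 8 h of PBITE-1, with 213.4 and 175.7 CPM per kb in DMSO. BNIP3 came next in DMSO at 22.8 CPM per kb, followed by SLC2A1 (9.31), PFKFB3 (6.80), and VEGFA (5.38). HK2 (4.66) and EGLN3 (4.25) overlapped in that group, and PFKFB4 (3.08) and ADM (1.98) were the lowest. At 12 h of PBITE-1 the order was NDRG1 (193.1), VEGFA (163.1), and LDHA (98.2), with no overlap among them, and EGLN3 was the lowest at 2.44. In shERG-Dox, PFKFB4, SLC2A1, EGLN3, and PFKFB3 lay between 3.84 and 4.03 CPM per kb, with overlapping libraries between each and the next. These levels depend on which transcripts are made, which the gene counts do not show.

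Among genes of the HIF machinery, none was called after Dox, where 12.0% of all tested genes were called higher and 7.19% lower. Of 16 tested genes of 17 listed, 7 passed as higher and 7 as lower, with a median of -0.05 (5 and 7 without shERG-DMSO replicate 1), where 35.1% and 35.3% of all tested genes passed. At 12 h of PBITE-1, 11 passed as higher and 5 as lower, with a median of 0.34, and at 4 and 8 h the counts were 3 and 4, and 9 and 4. Of all tested genes, 26.4% and 24.7% passed as higher and lower at 4 h, 35.9% and 37.0% at 8 h, and 39.4% in each direction at 12 h, and these shares are the background for the counts of the lists that follow. HIF1A, the alpha subunit best known for glycolytic targets, was at 248.1 ± 5.12 CPM in shERG-DMSO and 214.7 ± 4.75 in shERG-Dox, and went from 217.7 ± 6.21 CPM in DMSO to 329.4 ± 12.5 at 12 h. HIF1A was at -0.21 with Dox and at -0.20 without vehicle replicate 1. ARNT, its partner, rose by 0.88 with Dox (0.91 without that library), and CITED2, which competes with HIF1A for its coactivator, had the most negative change (-0.60, and -0.56 without it). With PBITE-1 the most positive was BMAL1, a circadian relative of ARNT, at 1.01, 2.11, and 2.51. The most negative was RBX1, a part of the VHL ligase, at 4 h (-0.44) and 8 h (-0.75), and ARNT2 at 12 h (-0.80).

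Of 31 tested of 34 listed other hypoxia genes, 10 passed as higher and 18 as lower after Dox (median -0.45), and 10 and 17 without shERG-DMSO replicate 1 (median -0.30), beside 35.1% and 35.3% of all tested genes. With PBITE-1, 17 passed as higher and 6 as lower at 4 h, 19 and 8 at 8 h, and 21 and 6 at 12 h (medians 0.21, 0.44, and 0.85), beside 39.4% of all tested genes in each direction at 12 h. LOX, a collagen crosslinking enzyme, fell by 2.37 with Dox, and EFNA3, an ephrin, rose by 1.14 (-2.28 and 1.21 without vehicle replicate 1). DDIT4, an inhibitor of mTORC1 that also responds to the integrated stress response, went from 3.92 ± 0.38 CPM in DMSO to 261.2 ± 25.6, 307.1 ± 5.15, and 538.3 ± 26.5 CPM (log2 6.05, 6.28, and 7.09). Among genes with a mean count of at least 50, the other end was VLDLR, a lipoprotein receptor, at 4 h (-1.72) and 8 h (-1.91). At 12 h it was CA12, a carbonic anhydrase (-2.19). The scarcer SLC2A3, with a mean count of 33.4, was lower still at 8 h (-2.16) and 12 h (-2.78). CA9, a standard marker of hypoxia, had at most 1 count in any library.

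Of 22 tested of 24 listed other enzymes of glycolysis and lactate handling, 5 passed as higher and 13 as lower after Dox (median -0.54), and 4 and 13 without shERG-DMSO replicate 1 (median -0.45), beside 35.1% and 35.3% of all tested genes. At 12 h of PBITE-1 the counts were 7 and 13 (median -0.59), beside 39.4% of all tested genes in each direction. They were 7 and 6 at 4 h and 7 and 7 at 8 h, close to the shares of all tested genes at those times. The enolases parted after Dox, with the ubiquitous ENO1 at 1585 ± 255.3 and 400.4 ± 9.46 CPM (log2 -1.97) and the neuronal ENO2 at 22.7 ± 2.97 and 51.5 ± 2.20 CPM (log2 1.19). Without vehicle replicate 1 their log2 fold changes were -1.85 and 1.27. With PBITE-1, aldolase C (ALDOC) rose by 1.19, 2.12, and 2.40. The phosphofructokinase PFKP fell by 0.65 at 8 h and 2.04 at 12 h. At 4 h the most negative among those with a mean count of at least 50 was PGAM1, a phosphoglycerate mutase (-0.19). The scarcer ENO3, with a mean count of 31.6, was at -1.02 at 4 h (adjusted p = 0.0135 by limma-voom).

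**Figure D4:**
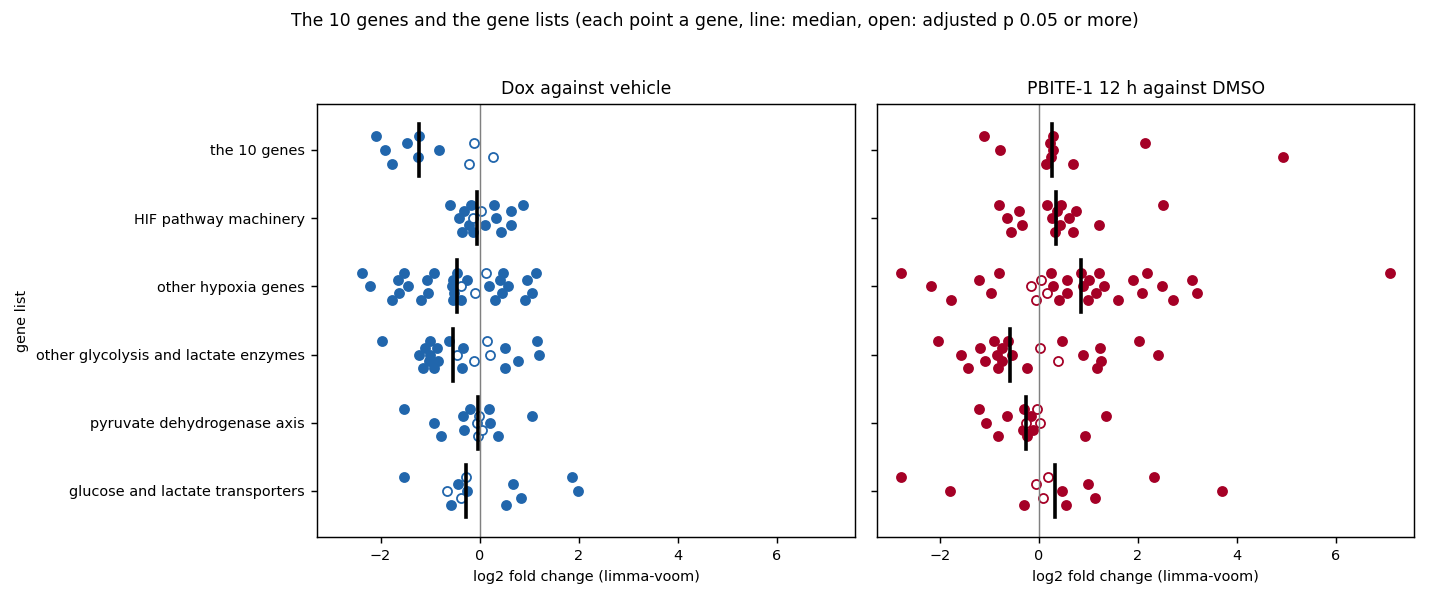
Log2 fold change (x axis) of the 10 genes and of the genes of 5 lists (y axis) for Dox against vehicle (left) and 12 h of PBITE-1 against DMSO (right); each point is a gene, open points did not pass the test, and black lines are medians. The median of the 10 genes is -1.23 on the left and 0.26 on the right, and that of the other enzymes of glycolysis is negative in both panels (-0.54 and -0.59).

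Of 12 tested of 14 listed transporters and regulators of glucose and lactate transport, 5 passed as higher and 4 as lower after Dox (5 and 5 without shERG-DMSO replicate 1, beside 35.1% and 35.3% of all tested genes), and 3 and 4, 6 and 2, and 6 and 3 at 4, 8, and 12 h of PBITE-1. SLC16A1, a lactate carrier, fell by 1.52 with Dox, and the glucose transporter SLC2A12 rose by 1.99 (-1.54 and 2.24 without that library). With PBITE-1 the lactate exporter SLC16A3 rose by 1.82 at 4 h and 3.17 at 8 h, SLC2A13, a myo-inositol transporter, by 3.70 at 12 h, and TXNIP, which lowers glucose uptake, fell by 1.50, 2.32, and 1.81. In the pyruvate dehydrogenase axis (14 tested of 15), 4 passed as higher and 6 as lower after Dox, beside 35.1% and 35.3% of all tested genes, and 2 and 4, 3 and 7, and 2 and 9 with PBITE-1. Without that library the counts for Dox were 4 and 6 of 15 tested. PDK1, the kinase that shuts off pyruvate dehydrogenase, fell by 1.53 with Dox and 1.21 at 12 h, its relative PDK2 rose by 1.06 with Dox (-1.34 and 1.07 without that library), and the pyruvate carrier MPC1 rose by 0.46, 0.80, and 1.36 with PBITE-1. The most negative were PDPR at 4 h (-0.36) and DLAT, a subunit of the enzyme, at 8 h (-0.74).

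Of 14 tested paralogs of the 10 genes (17 listed), 6 passed as higher and 2 as lower after Dox (4 and 3 without shERG-DMSO replicate 1, beside 35.1% and 35.3% of all tested genes), and 6 and 2, 7 and 6, and 7 and 6 with PBITE-1, beside 39.4% in each direction at 12 h. Beside the rise of VEGFA, VEGFB was at -1.67 at 12 h of PBITE-1, and the scarce placental growth factor PGF was at 0.06 CPM in DMSO and 1.49 CPM at 12 h. ADM2 rose with ADM (2.16, 3.15, and 3.57). LDHB, the subunit that favours the making of pyruvate, fell like LDHA (-0.996 with Dox and -1.10 at 12 h), and HK1 fell by 0.37 and 0.62. Beside NDRG1, NDRG2 was at 0.59 with Dox and -1.81 at 12 h, NDRG3 at 0.72 and -0.71, and NDRG4 at 1.57 and 1.64. EGLN1, the main HIF hydroxylase, was at 0.03 (not passed) and 1.21, EGLN2 at 0.34 and 0.41, PFKFB1, with a mean count of 7.67, at 1.15 and 0.38 (not passed), PFKFB2 at -0.12 (not passed) and 1.24, VEGFD at -0.40 (not passed) and 1.80, and SLC2A3 at -0.39 (not passed) and -2.78. After Dox, VEGFB (-0.02) and PGF did not pass, and ADM2 rose by 0.57. Without shERG-DMSO replicate 1, ADM2 (0.45) and PFKFB1 (1.26) no longer passed with Dox and PFKFB2 passed (-0.17), while LDHB was at -1.01, HK1 at -0.36, NDRG2 at 0.59, NDRG3 at 0.70, NDRG4 at 1.60, EGLN1 at 0.14, EGLN2 at 0.40, VEGFB at 0.03, VEGFD at -0.45, and SLC2A3 at -0.37. Of 5 tested receptors of VEGFA and ADM (8 listed), 1 passed as higher and 2 as lower after Dox (1 and 1 without that library), and 1 and 1, 2 and 1, and 2 and 2 with PBITE-1. NRP1 is a coreceptor of VEGFA. Among receptors with a mean count of at least 50 it was the most negative in all 4 comparisons (-0.73, -0.54, -1.21, and -1.01). RAMP1 was the most positive of these after Dox (0.42). The scarce NRP2 was at 1.62 CPM in shERG-DMSO and 0.89 CPM in shERG-Dox. KDR and FLT1, also scarce, were at 0.02 and 0.19 CPM in DMSO. They were at 1.32 and 0.83 CPM at 8 h of PBITE-1, and at 0.37 and 0.72 CPM at 12 h. Without shERG-DMSO replicate 1, NRP1 and RAMP1 were at -0.77 and 0.43 with Dox.

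The 2 genes closest to each member were sought among tested genes outside these lists with a mean count of at least 50, by the mean absolute distance of their log2 differences from the vehicle of the line over the 4 treated groups. VEGFA was closest to SLC7A11, the cystine transporter (distance 0.28), and to PCDH19 (0.54). SLC2A1 was closest to NCAPG (0.06) and MTFR2 (0.11), and PFKFB3 to SKA1 (0.09) and NCAPH (0.09), of which NCAPG, NCAPH, and SKA1 work in mitosis. LDHA was closest to the checkpoint kinase CHEK1 (0.06) and ANP32B (0.09), HK2 to HMGB2 (0.16) and HES1 (0.23), and NDRG1 to FAM72A (0.09) and DEPDC1 (0.09). BNIP3 was closest to RECQL (0.06) and EIF2S2 (0.07), ADM to CCSER2 (0.12) and SPAG9 (0.13), PFKFB4 to FOXN2 (0.07) and EZR (0.07), and EGLN3 to ZNF354B (0.04) and TMEM101 (0.06). These are descriptions over 4 groups that share 2 vehicles, with shERG-DMSO replicate 1 included, and the distance of VEGFA to its nearest gene was larger than that of the other 9.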

How the data were processed

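RNA-seq was performed on 18 VCaP samples from rRNA-depleted total RNA with paired-end reads. The deposited table holds whole-number counts per Ensembl gene without normalization. The study's methods name Kallisto for quantification, while the submitters' processing notes name STAR, featureCounts, and hg38. Which of these made the table, the annotation, and whether strand was used are not given in the sources used here, so genes that share sequence or overlap are uncertain. Of 22034 identifiers, 22011 matched a symbol. Positions are from GENCODE release 29 on GRCh38 and promoters from RefSeq.

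Genes were filtered with filterByExpr over the 6 groups (14164 kept), scaled by TMM, and tested with voom and eBayes in limma 3.58.1 with edgeR 4.0.16 in R 4.3.3, with Benjamini-Hochberg adjustment over all tested genes. The 6 VCaP-shERG and the 12 parental samples were fitted separately, the interaction and the comparison of vehicles on all 18. Passing the test means an adjusted p under 0.05, and called means in addition an absolute log2 fold change above 1. As alternatives, the quasi-likelihood test of edgeR and DESeq2 1.42.0 were run, with other scalings, filters, samples, and thresholds, and each sample was left out in turn. The study's methods name edgeR and limma-voom too, in other versions. The counts and named genes of the lists without shERG-DMSO replicate 1 were added after the data were seen. The 10 genes, the lists, and the tests were chosen with earlier results of these data known, and some genes stand in more than 1 list. From each list, the genes with the most positive and most negative change in each comparison with vehicle are named (adjusted p under 0.05, mean count of at least 50), as are all tested paralogs. HIF1A, CA9, and BNIP3L were chosen after their values were seen. Levels per kilobase use the longest coding transcript of the GENCODE basic set.

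Totals were 11308600 to 17483423 counts per sample, and p-values measure only the spread between these samples, which the study's methods call biological replicates for PBITE-1 and which may be technical in the shERG line. Chi-square per degree of freedom within groups was 1.71 to 5.17, and each library was counted. On simulated counts in which 200 genes were shifted by 2 on the log2 scale, 200 were recovered in each of the 4 comparisons with vehicle, with 3 or 4 false calls among 13800 to 13830 genes. The shifted genes were drawn from those with a mean count of at least 50, and no outlying library was simulated. The simulation therefore does not cover smaller changes, scarcer genes, or a library that stands apart.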

Additional observations from a re-analysis of the deposited data

Results flagged for a closer look

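The response to 12 h of PBITE-1 minus the response to Dox was called by the interaction test for 7 genes, with log2 differences of 6.65 for VEGFA, 1.83 for ADM, 2.33 for HK2, 1.42 for PFKFB3, 1.64 for SLC2A1, 1.34 for NDRG1, and 1.47 for BNIP3. Cell line, treatment, and duration cannot be told apart in these differences. The change from 4 to 8 h of PBITE-1 was called for VEGFA, at 1.77 on the log2 scale. No formal test for a single outlying sample was run on the groups of 3 samples. Replicate 1 of shERG-DMSO stood apart for these genes. Without it the 7 differences from the interaction test were again called, with the values given above.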

How the results depend on the processing

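Of 1300 values of the 10 genes under the alternatives, 1237 kept their direction and their side of the threshold, 28 kept their direction but no longer passed the test, 17 passed only under the alternative, and 18 changed sign. None of the sign changes was in a value that passed the test with all libraries. For Dox, PFKFB4 was at 0.0496 with upper-quartile scaling and 0.148 with library size only, and EGLN3 at 0.0481 with library size only. For 12 against 8 h, BNIP3 was at -0.00572 with at least 10 counts in every sample and at -0.00645 with all 18 samples. The other sign changes came with leaving out 1 library, where PFKFB4 ranged from -0.398 to 0.298 for Dox, from -0.0509 to 0.639 in the interaction, and from -0.0724 to 0.617 between the vehicles. Between the vehicles, PFKFB3 ranged from -0.0312 to 0.386, SLC2A1 from -0.0400 to 0.164, and EGLN3 from -0.143 to 0.0209. For 8 against 4 h, HK2 ranged from -0.0955 to 0.00182, PFKFB3 from -0.0276 to 0.129, and EGLN3 from -0.163 to 0.0233, and for 12 against 8 h BNIP3 ranged from -0.0187 to 0.0422. The cause was not tested.

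Without a fold threshold, the genes passing as higher and lower were 4969 and 5005 for Dox, 3741 and 3495, 5081 and 5238, and 5583 and 5586 at 4, 8, and 12 h of PBITE-1, 3783 and 3732 for 8 against 4 h, 3931 and 4602 for 12 against 8 h, 4714 and 4970 for the interaction, and 3305 and 3301 for the vehicles. Of the 10 genes, 6 and 3, 6 and 3, 8 and 2, 4 and 2, and 3 and 4 then passed in the PBITE-1 comparisons, 1 as lower in the interaction, and 5 as higher between the vehicles. With library size only, 506 genes were called lower with Dox, and with no filter 274 were called higher between the vehicles. With at least 10 counts in every sample, which tests fewer genes, the calls were 915 higher for Dox, 554 and 213 at 4 h, 1354 and 788 at 8 h, 268 and 149 for 8 against 4 h, 276 and 530 for 12 against 8 h, and 56 and 330 between the vehicles. Leaving out 1 library gave 5 to 7 of the 10 genes called lower with Dox and 1 to 4 called higher between the vehicles; the other counts of the 10 genes did not move.

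No pairing by replicate number was detected: deviations of same-numbered samples correlated at -0.03 to 0.05 over 21 pairs. Those of other pairs in the same experiment correlated at -0.07 to 0.06 over 42 pairs. These correlations cannot show whether the samples were handled in pairs. With the replicate block, PFKFB4 passed as lower with Dox (-0.30), PFKFB3 (0.25) and PFKFB4 (0.39) passed as higher between the vehicles, and no other value of the 10 genes crossed the threshold. With 3 samples per group and 16 to 26 counts of ADM per shERG library, small changes in the scarce genes were not detectable.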
